A study of Mus musculus with 21 samples.

Results

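DEC205 dendritic cells (DCs) of the mouse spleen were compared between mice injected with Flt3L melanoma and wild-type mice, with 3 arrays in each group. These 6 arrays were chosen by their titles from the 21 arrays of the series, which also cover 33D1 DCs from mice of both kinds and, from wild-type mice only, B lymphocytes and both classes of T cells. The series was made to look for the membrane molecule that the 33D1 antibody binds, per its design text. All mice were C57BL/6. Each array of the injected mice held splenic DCs pooled from 20 mice that were killed on days 10 to 12, and each wild-type DC array held a pool of 40 to 80 mice. No transgene or deletion was named for any group, and the melanoma line is named only by its ligand. Flt3L and the tumour came together in these mice, and no group had one without the other, so their effects cannot be told apart. Whether the pools of a group were sorted and handled separately is not stated, so p-values measure only the spread between pools, some of which may be technical. That spread was estimated over all 21 arrays, other cell types included, and not from the 6 DEC205 arrays alone.

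Flt3L is a growth factor that acts through the receptor Flt3 on DC progenitors and DCs and expands DCs in the spleen. The DCs bound by the DEC205 antibody are the CD8-positive type, which depends on the transcription factors Irf8 and Batf3, takes up dead cells and presents their antigens on MHC class I. The DCs bound by 33D1 are the CD8-negative type, which carries Sirpa, often CD4, and depends in part on Notch2 and Relb. Type I interferon, made in infections and in tumours, induces a large set of genes, many of which act against viruses.

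Expression was read as the deposited signal of each probe set, scaled so that the 2% trimmed mean of every array was 500. Differences are on the scale log2(signal + 48.6), Flt3L melanoma minus wild-type, with their standard error, and they understate the change of genes with low signals. A gene was called where limma gave an adjusted p under 0.05. The medians of the 6 arrays lay between 121.9 and 168.1, and their log2 signals correlated across genes with r from 0.964 to 0.978 within groups and from 0.952 to 0.973 between them. Genes are not independent replicates, so these values describe the arrays.

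Sort markers were checked first. Ly75, which encodes the DEC205 antigen, had signals of 2768, 2112 and 2324 in the Flt3L arrays and 3104, 3131 and 2683 in the wild-type arrays, against a mean of 169.3 in wild-type 33D1 DCs. Cd8a, which encodes the CD8 alpha chain, had 11916, 7461 and 8475 against 15806, 16334 and 15329. Its Flt3L arrays all lay below the wild-type arrays, but the difference of -0.79 ± 0.34 did not pass the test (adjusted p = 0.343). The list of CD8-positive DC markers had 14 measured genes and 0 calls in either direction, with a median difference of -0.07. Irf8 differed by 0.01, Batf3 by -0.07 and Xcr1, the receptor for the chemokine Xcl1, by -0.27. Clec9a and Tlr11 were not measured.

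Wild-type replicate 3 stood apart from the other 2 wild-type arrays in transcripts of 33D1 DCs. Tgm2, a transglutaminase with a mean of 17750 in wild-type 33D1 DCs, had signals of 254.9, 319.5 and 1413 in wild-type replicates 1, 2 and 3. Cd7, with a mean of 11350 in 33D1 DCs, had 135.1, 22.3 and 562.3. Replicate 3 was also the highest wild-type array for 27.7% of all genes, for 48.1% of the genes called higher and for 47.2% of those called lower. Genes named below with a call that was lost without that array are given as such. In RNA from pooled cells, fewer cells of a type and less RNA per cell cannot be told apart.

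Of 13284 genes, 135 were higher (1.02%) and 108 lower (0.813%) in DEC205 DCs of the Flt3L melanoma mice, 1.83% in either direction. Counted by probe set, 206 of 23946 were higher (0.86%) and 170 lower (0.71%). At least 2-fold differences were found for 41 of the higher and 60 of the lower genes. The 3 arrays of one group all lay beyond the 3 of the other for 241 of the 243 called genes, against 10.8% of all genes with every Flt3L array above and 9.16% with every Flt3L array below. The median difference of all genes was -0.01. Without wild-type replicate 3 the counts were 132 higher (0.994%) and 56 lower (0.422%), and 91 of the higher and 55 of the lower genes were among the calls made with all arrays. The calls that held whichever 1 of the 6 arrays was left out numbered 34 higher and 33 lower. These counts include the 4 genes by which the comparison was proposed, Lifr, Ifi27l2a, Serpinb2 and Ltb. The list counts below include them too. Lifr is in the gp130 list, Ifi27l2a in the interferon list and Serpinb2 in the serpin list. Ltb is in the lymphotoxin list and among the markers of CD8-negative DCs.

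**Figure D1:**
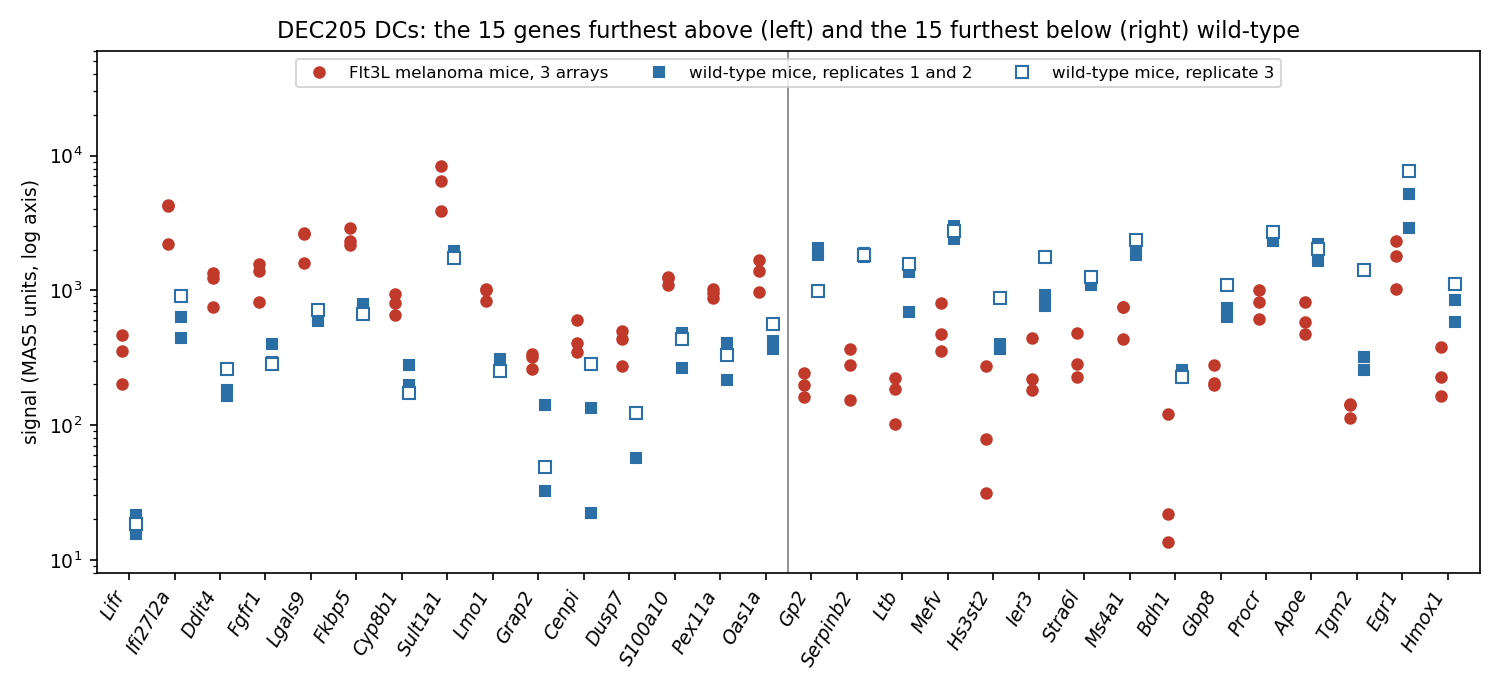
Signal (log axis) of the 15 genes furthest above and the 15 furthest below wild-type among the called genes, with 1 circle for each Flt3L melanoma array and 1 square for each wild-type array (replicate 3 open). Lifr lies between 201 and 463 in the Flt3L arrays and at 21.5 or less in the wild-type arrays, while Tgm2 and Ier3 show wild-type replicate 3 well above the other 2.

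Lifr, the receptor chain that binds leukaemia inhibitory factor, had the largest positive difference of any called gene. Its signals were 463, 353 and 201 in the Flt3L arrays and 21.5, 15.6 and 18.5 in the wild-type arrays. The groups were far apart, and the wild-type signals lay below 48.6, the 25th percentile of the table, so the fold change of this gene is poorly set. The difference was 2.47 ± 0.40 (adjusted p = 0.002) and 2.47 without wild-type replicate 3 (adjusted p = 0.00887). In 33D1 DCs the same gene was already at 437, 426 and 431 in wild-type mice and reached 625, 895 and 575 in Flt3L melanoma mice, a difference of 0.61 that did not pass the test.

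Il6st, which encodes gp130, the chain that Lifr pairs with to signal, fell. It had 675, 605 and 789.5 in the Flt3L arrays against 1902, 1742 and 1756 in the wild-type arrays, with no overlap. The difference was -1.33 ± 0.16 (adjusted p = 7.18e-05), -1.35 without wild-type replicate 3, and 3 of its 4 probe sets were called lower. So the receptor chain and its signalling partner moved in opposite directions. The other 10 measured genes of the gp130 family of cytokines and receptors were not called. Lif differed by 0.06, Il6ra by -0.03, Osmr by -0.27, and the kinases Jak1 and Jak2 by -0.09 and -0.04. The list of 12 had a median of -0.04.

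More genes of the interferon response rose than fell. Of 36 measured genes, 6 rose, 1 fell and 29 were not called, beside 1.02% higher and 0.813% lower of all genes. A positive difference was found for 28, and the median was 0.36 beside -0.01 for all genes. Ifi27l2a, an interferon-induced membrane protein, had signals of 4303, 4205 and 2222 in the Flt3L arrays and 631, 443.6 and 904 in the wild-type arrays. Every Flt3L array was above the highest wild-type array, and the difference was 2.35 ± 0.25 (adjusted p = 2.17e-05; 2.59 without wild-type replicate 3). Oas1a, a synthetase that activates RNase L on sensing double-stranded RNA, rose by 1.47 ± 0.19, from 367, 421 and 561 to 1392, 1681 and 965. Isg20, an exonuclease that degrades viral RNA, rose by 1.45 ± 0.24, and Xaf1, a promoter of cell death, by 1.38 ± 0.19. Usp18, which removes Isg15 and dampens the interferon receptor, rose by 1.20, and Ifitm3, which blocks viral entry, by 0.75. Usp18 and Ifitm3 were each called in only 2 of the 6 fits that left out 1 array. Their adjusted p reached 0.0979 without Flt3L replicate 2 and 0.183 without wild-type replicate 2, respectively.

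Most of the interferon list did not pass the test. Irf7 had 0.76, Rsad2 0.62, Stat2 0.48, Mx1 0.28 and Ifit1 0.22, all not called, and Isg15 was not analysed here. Cxcl9, a chemokine that draws T cells and is induced mainly by interferon gamma, went the other way. Its signals were 6013, 5156 and 6204 against 11340, 11478 and 13324, a difference of -1.05 ± 0.19 (adjusted p = 0.00419). The groups did not overlap, and the gene was called in each fit that left out 1 array. Of the 36 genes 8 had a negative difference, among them Cxcl9, Gbp2 (-0.71) and Cxcl10 (-0.42), and only Cxcl9 was called lower. Targets of interferon gamma were not examined as a set. Without wild-type replicate 3 the list gave 7 higher, 1 lower and a median of 0.33. The higher count was 4 when wild-type replicate 1 or 2 or Flt3L replicate 1 or 2 was left out. Flt3L replicate 3 had the lowest Flt3L signal for each of the 6 risen genes.

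The promoters of this list were searched for the core of the interferon-stimulated response element, GAAA followed by any 2 bases (NN) and a further GAAA, on either strand, overlapping matches included, in the window from 250 bases before to 50 bases after the start. The windows are those of RefSeq on GRCm38.p6. The motif was found in 18 of 28 list genes with a window (64.3%), against 3.71% of all tested genes with a window and 3.44% of all windows. The list was chosen as genes of the interferon response, so its high share is not a result of these arrays. It stood in 2 of the 4 risen genes with a window and in 16 of the 23 that were not called, so its presence did not separate the called members from the others. The stretches of Oas1a, which rose, and of Ifit1 and Oas3, which were not called, are shown to compare the element across members, each 5′ to 3′ on the gene's strand with the motif in capitals.
Oas1a (chr5:120907526-120907565, minus strand): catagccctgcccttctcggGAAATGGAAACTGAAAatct
Ifit1 (chr19:34640765-34640833, plus strand): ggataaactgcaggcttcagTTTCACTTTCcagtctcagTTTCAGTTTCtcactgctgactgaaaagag
Oas3 (chr5:120777705-120777754, minus strand): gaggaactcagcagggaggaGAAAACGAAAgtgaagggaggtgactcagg
The Oas1a stretch holds 2 overlapping copies just before the start, and the Ifit1 stretch holds 2 copies read on the opposite strand. A match is a description of the letters, and binding was not measured here.

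Ddit4, a stress-induced inhibitor of the kinase mTOR, and Fkbp5, a chaperone partner of the glucocorticoid receptor, are both known targets of glucocorticoids and both rose. Ddit4 had 1341, 1231 and 749 in the Flt3L arrays against 165, 181 and 262.5, a difference of 2.18 ± 0.31 (adjusted p = 0.000527). Fkbp5 had 2889, 2318 and 2157 against 796, 702 and 662, a difference of 1.70 ± 0.18 (adjusted p = 1.85e-05). Both genes also rose in 33D1 DCs, by 1.30 and 1.38. They were the only risen genes among 17 measured glucocorticoid-induced genes, whose median was 0.03. Tgm2, also on that list, was called lower, and its call was lost without wild-type replicate 3 (adjusted p = 0.0659).

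Fgfr1, a receptor for fibroblast growth factors, rose by 1.77 ± 0.25, from 396, 294 and 285 to 1382, 1578 and 817.5, and 2 of its 3 probe sets were called. Dusp7, a phosphatase of the kinase ERK, rose by 1.59 ± 0.21, from 121, 57.1 and 123 to 276, 432 and 495, with 1 of 3 probe sets called. Spry2, an inhibitor of growth factor signalling that ERK induces, fell by 1.15, from 98.9, 215 and 105 to 44.3, 44.2 and 14.3, with 1 of 2 probe sets called. All 3 genes had groups without overlap. Spry2 lost its call without wild-type replicate 2 (adjusted p = 0.0978) and without Flt3L replicate 3.

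Lgals9, a galectin that binds the receptor Tim-3, had 2676, 2609 and 1596 against 593, 613 and 712, a difference of 1.74 ± 0.16 (adjusted p = 8.5e-06). S100a10, the partner of annexin A2, rose by 1.52 ± 0.28, with 2 of 3 probe sets called. Lmo1, a LIM-domain transcriptional cofactor, rose by 1.65 ± 0.25, and Grap2, an adaptor of lymphocyte signalling, by 1.62 ± 0.30, with 1 of 2 probe sets called. Pex11a, which drives the division of peroxisomes, rose by 1.49 ± 0.26, with 1 of its 2 probe sets called. These 5 genes, with Lifr, Ifi27l2a, Ddit4, Fgfr1, Fkbp5, Dusp7 and Oas1a, kept their calls whichever array was left out. The remaining 3 of the 15 genes furthest above wild-type did not. Sult1a1, a sulfotransferase, had 6510.3, 8324 and 3905 against 1905, 1946 and 1747 (1.65 ± 0.34) and lost its call without Flt3L replicate 2 (adjusted p = 0.106) or 1. Cyp8b1, a sterol hydroxylase of bile acid synthesis, differed by 1.69 ± 0.36, and its adjusted p reached 0.0698 without wild-type replicate 3 and 0.0986 without Flt3L replicate 2. Cenpi, a centromere protein, differed by 1.59 ± 0.39, and was called in only 1 of the 6 such fits, the one without wild-type replicate 3 (2.11).

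Of 35 measured cell cycle genes, 5 rose in the Flt3L melanoma mice and 0 fell, beside 1.02% and 0.813% of all genes. A positive difference was found for 33, and 23 had every Flt3L array above every wild-type array, beside 10.8% of all genes. The median difference of 0.69 stood beside -0.01 for all genes. Rrm1, the large subunit of the reductase that makes deoxynucleotides, had 2811, 2393 and 2720.0 against 1271, 804 and 1908 (1.05 ± 0.22, adjusted p = 0.0144). Ccnd1, a cyclin that drives entry into the cycle, had 8065, 6833 and 6915 against 4119, 4276 and 4754 (0.72 ± 0.15). Ccne1, the cyclin of the step into DNA synthesis, rose by 0.91, Mcm6, a subunit of the replicative helicase, by 0.74, and Ccnd3 by 0.63. The calls of Ccne1 (adjusted p = 0.0925) and Ccnd3 (0.0712) were lost without wild-type replicate 3, and Ccne1 was called in 0 of the 6 fits that left out 1 array. Of those 6 fits Rrm1 was called in 3, Ccnd1 and Ccnd3 in 2 each and Mcm6 in 1. For Rrm1 2 of 2 probe sets were called, for Ccnd1 and Ccnd3 1 of 3, and for Mcm6 and Ccne1 1 of 2. Cdk1, the kinase of mitosis, had 2794, 2967 and 2755 against 1083, 826 and 2225, a difference of 1.14 that did not pass the test (adjusted p = 0.294). Mki67 had 0.74 and Top2a 0.87, also not called. The inhibitors Cdkn1a (-0.45) and Cdkn1b (-0.36) were the only members below 0.

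**Figure D2:**
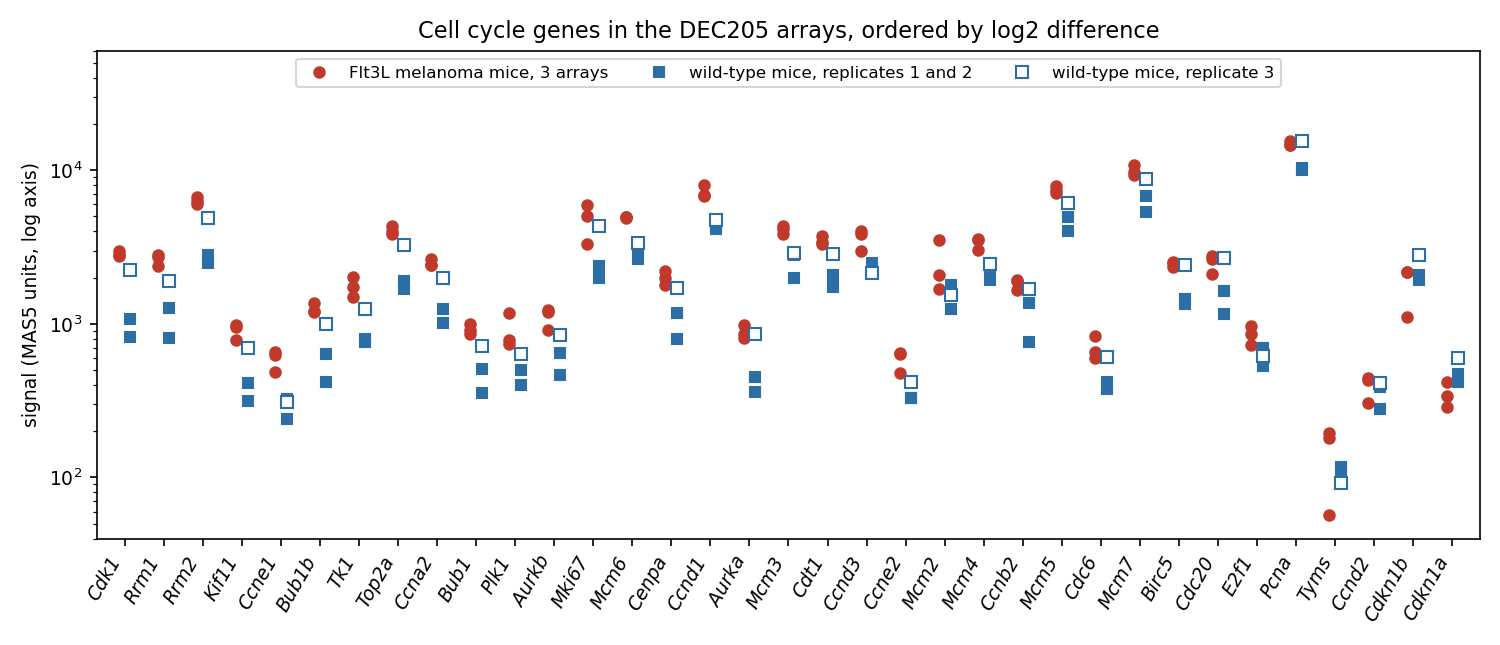
Signal (log axis) of the 35 measured cell cycle genes, ordered by their difference, with circles for the 3 Flt3L melanoma arrays and squares for the 3 wild-type arrays (replicate 3 open). For most genes the Flt3L arrays lie above the wild-type arrays, and wild-type replicate 3 lies between the Flt3L arrays and the other 2 wild-type arrays.

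Wild-type replicate 3 set the spread of this list. The summed signal of the 35 genes was 65170 and 56340 in wild-type replicates 1 and 2 and 89260 in replicate 3, against 103700 to 110300 in the Flt3L arrays. The same sum averaged 93730 in wild-type 33D1 DCs. Without replicate 3 the list gave 9 higher genes and a median of 0.83. The count was 2 without wild-type replicate 1, 0 without wild-type replicate 2, 0, 2 and 1 without Flt3L replicates 1, 2 and 3, and the median stayed between 0.52 and 0.83. The part of replicate 3's 33D1 transcripts in these values was not tested.

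Serpinb2, an inhibitor of the protease urokinase, was among the 3 genes that fell most. Its signals were 368, 155 and 279 in the Flt3L arrays and 1896, 1767 and 1822 in the wild-type arrays, which lay close together. The difference was -2.63 ± 0.27 (adjusted p = 1.85e-05) and the same without wild-type replicate 3. The other 9 measured serpins were not called, and the list had a median of -0.16. Gp2, a glycosylphosphatidylinositol-anchored protein that binds bacterial fimbriae, fell by 2.69 ± 0.31, from 1830.4, 2046 and 987 to 243, 163 and 198.5. Mefv, which encodes the inflammasome sensor pyrin, fell by 2.28 ± 0.24, from 2992, 2398 and 2764 to 477, 357 and 802. Both kept their calls whichever array was left out. Mefv had a mean of 4664 in wild-type 33D1 DCs, above every DEC205 array.

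Ltb, lymphotoxin beta, a membrane ligand of the lymphotoxin beta receptor, had 184, 102 and 222.5 in the Flt3L arrays and 1374, 696 and 1564 in the wild-type arrays. The difference was -2.50 ± 0.21 (adjusted p = 2.18e-06) and -2.28 without wild-type replicate 3. Ltb is also a marker of 33D1 DCs, where its wild-type mean was 15460. In wild-type replicate 2, where Ltb had 696, Cd7 was below every Flt3L array, while Tgm2, Sirpa, Cd4 and Cd209a were above every one. These markers were picked after their values were seen. The 16 measured markers of CD8-negative DCs summed to 12250 in that array, against 8703 to 10350 in the Flt3L arrays. The part of 33D1 transcripts in the Ltb values was tested only by leaving out replicate 3. Of 22 measured genes of the lymphotoxin, TNF and NF-kB list, 3 fell and 1 rose, beside 0.813% and 1.02% of all genes. The median of the list was -0.25. Relb, a subunit of NF-kB downstream of the lymphotoxin beta receptor, fell by 0.73, and Traf1, an adaptor of TNF receptors, by 1.01. The calls of Relb (adjusted p = 0.214) and Traf1 (0.168) were lost without wild-type replicate 3, and both were called in only 1 of the 6 fits that left out 1 array. Tnfrsf13b, a receptor for BAFF and APRIL, rose by 0.91 ± 0.16, from 142, 171 and 257 to 399, 419 and 354, and held in all 6. Ltbr itself differed by 0.04 and Lta by -0.25.

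Further genes fell and kept their calls whichever array was left out. Procr, the receptor of activated protein C, had 820.1, 609.8 and 999 against 2538, 2312 and 2716 (-1.61 ± 0.21, adjusted p = 0.00025). Stra6l, a receptor of retinol-binding protein, fell by 1.72 ± 0.25, and Gbp8, a guanylate-binding GTPase, by 1.64 ± 0.24. Stra6l and Gbp8 had means of 5098 and 4185 in wild-type 33D1 DCs, above every DEC205 array. Gclc, the catalytic subunit of the enzyme that starts glutathione synthesis, had 747, 1053 and 1135 against 2970.1, 1629 and 3205 (-1.33 ± 0.19, adjusted p = 0.000746). Ms4a1, the B cell surface protein CD20, fell by 1.68 ± 0.29, from 2198, 1816 and 2345 to 752, 432 and 749.5, and both of its probe sets were called. Cd79a, a defining B cell gene, was between 59.8 and 128 in all 6 arrays, against a mean of 29190 in B cells. The part of B cell RNA in the Ms4a1 values was not tested. Bdh1, an enzyme of ketone body metabolism, fell by 1.67 ± 0.32, and lost its call without Flt3L replicate 2 (adjusted p = 0.0658).

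Other genes among the 15 furthest below wild-type depended on single arrays. Hs3st2, a heparan sulfate sulfotransferase (-1.90), Ier3 (-1.86), Apoe, the apolipoprotein of lipid transport (-1.61), Tgm2 (-1.60), Egr1 (-1.57) and Hmox1, which degrades heme (-1.56), were all called with every array and all lost their calls without wild-type replicate 3, where the adjusted p ranged from 0.0507 for Apoe to 0.223 for Egr1. Each also lost its call without Flt3L replicate 2, up to an adjusted p of 0.256, and each kept it in 2 or 3 of the 6 fits that left out 1 array. Apoe had 819, 475 and 578 against 2210, 1651 and 2042 with no overlap. Hmox1, Apoe and Vcam1 (-1.21) are high in spleen macrophages. Apoe is not on the marker list given next, and its mean in B cells was 3265, above every DEC205 array. The 12 measured macrophage and monocyte markers gave 0 higher and 2 lower genes, Hmox1 and Vcam1, beside 0.813% lower of all genes. The median of the list was -0.61, and 4 of the 12 had a positive difference, the highest at 1. Without wild-type replicate 3 the list had 0 lower genes and a median of -0.45, and Vcam1 (adjusted p = 0.149 there) was called in 0 of the 6 fits that left out 1 array. The list summed to 10710 to 11440 in the Flt3L arrays and 13150, 10240 and 14460 in wild-type replicates 1 to 3. C1qb, a defining macrophage gene, had 617, 101 and 596 in those wild-type arrays and 123 to 148 in the Flt3L arrays. The part of macrophage RNA in these values was not tested.

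Of 16 measured markers of CD8-negative DCs, 9 had every Flt3L array below every wild-type array, beside 9.16% of all genes. The median of the list was -0.90. In DEC205 DCs of the Flt3L melanoma mice 7 of the markers fell and 0 rose, beside 0.813% and 1.02% of all genes. Besides Ltb, Tgm2 and Relb these were Sirpa, the receptor of CD47 (-1.55 ± 0.34), Cd4, the co-receptor of MHC class II recognition (-1.50 ± 0.30), Cd209a, a lectin of the DC-SIGN family (-1.14 ± 0.26), and Esam, an adhesion molecule of Notch2-dependent DCs (-0.84). Sirpa had 135, 145 and 24.1 against 277, 231 and 666, and Cd4 had 24.2, 23.0 and 25.1 against 133, 57.7 and 400.0. Wild-type replicate 3 was highest for both, and the Flt3L arrays were lowest. For Sirpa 1 of 3 probe sets was called, for Cd4 1 of 2 and for Tgm2 1 of 5.

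**Figure D3:**
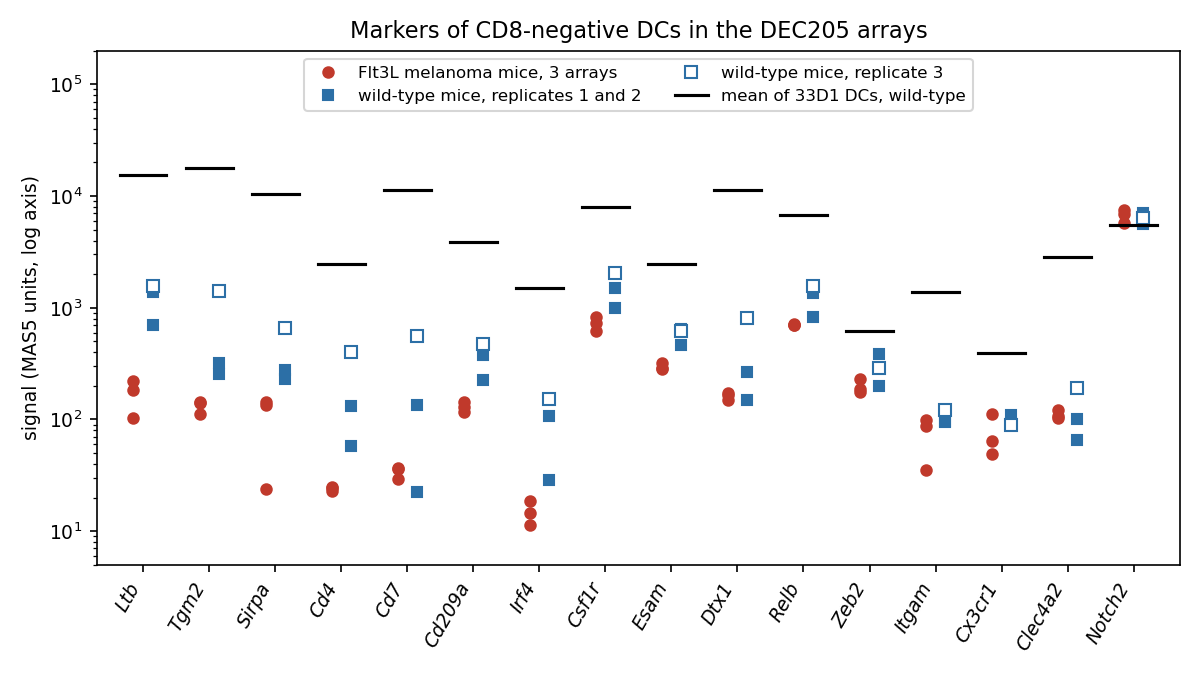
Signal (log axis) of the 16 measured markers of CD8-negative DCs in the DEC205 arrays, with circles for Flt3L melanoma, squares for wild-type (replicate 3 open) and a line at the mean of wild-type 33D1 DCs. Wild-type replicate 3 is the highest DEC205 array for Tgm2, Sirpa, Cd4, Cd7 and Dtx1, and also for Ltb, Relb, Cd209a and Csf1r. Apart from Notch2 the DEC205 signals lie below the 33D1 line.

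Apart from Notch2, the DEC205 signals of these genes lay below the mean of wild-type 33D1 DCs. The 16 genes summed to 8703 to 10350 in the Flt3L arrays, to 12000, 12250 and 17260 in wild-type replicates 1 to 3, and to a mean of 102000 in wild-type 33D1 DCs. Without wild-type replicate 3 the list gave 2 lower genes, Ltb and Cd4, with a median of -0.63. It also gave 2 without Flt3L replicate 2 and 2 without Flt3L replicate 3, and 3 without Flt3L replicate 1. Of all 108 genes that fell, 55 (50.9%) were called higher in 33D1 than in DEC205 DCs of wild-type mice, beside 41 of the 135 risen genes (30.4%) and 11% of all genes. Both comparisons use the wild-type DEC205 arrays. The part of 33D1 transcripts in the lower calls was tested only by leaving out replicate 3.

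Of 18 measured genes of MHC class I presentation, 0 were called, beside 1.83% of all genes, with differences from -0.28 to 0.25 and a median of -0.09. H2-K1 differed by -0.08, B2m by -0.20, Tap1, the peptide transporter, by 0.08, and Psmb8, a subunit of the immunoproteasome, by -0.10. Of 20 genes of MHC class II presentation, 2 fell and 0 rose, beside 0.813% and 1.02% of all genes. The median of the list was -0.22. H2-Oa, a chain of the inhibitor of peptide loading, had 7453, 5016 and 6212 against 9456, 10549 and 10118 (-0.70 ± 0.14, adjusted p = 0.0135), and lost its call without Flt3L replicate 2 (0.106) or wild-type replicate 2. Ctsd, a lysosomal protease, fell by 0.65 ± 0.13, and lost its call without wild-type replicate 3 (0.0728), Flt3L replicate 2 or Flt3L replicate 3. The chains H2-Aa, H2-Ab1 and H2-Eb1 differed by -0.10, -0.15 and -0.16, the invariant chain Cd74 by -0.13 and the master regulator Ciita by -0.70, none called. The probe sets of H2-K1, H2-D1 and H2-Aa can also bind related transcripts, and these genes have close relatives.

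**Figure D4:**
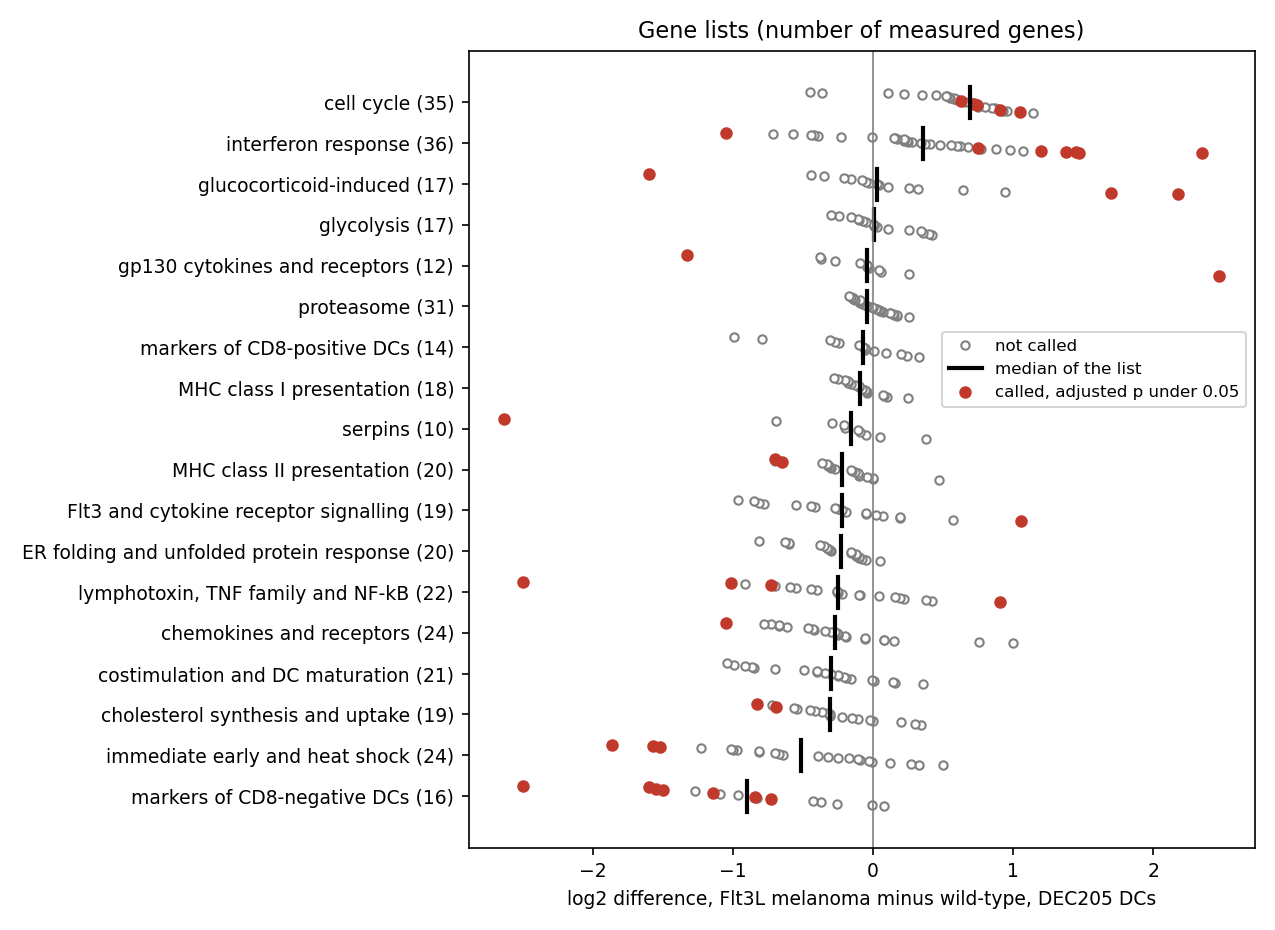
Log2 difference of each measured gene (circles, filled where called) in 18 gene lists, with a bar at the median of the list. The cell cycle list has its median at 0.69 and the interferon list at 0.36, while the markers of CD8-negative DCs have theirs at -0.90.

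The proteasome (31 genes, median -0.04) and the folding genes of the endoplasmic reticulum (20 genes, median -0.23) had 0 called members. The lysosome list of 23 genes had a median of -0.12 and 1 lower member, Tpp1, a peptidase (-0.58), whose call was lost without wild-type replicate 3 (adjusted p = 0.0636). Costimulation and maturation genes (21, median -0.30) had 0 called, with Cd40 at -0.70. Among 24 chemokines and receptors only Cxcl9 was called, and the median was -0.27. Of 16 lectins and uptake receptors only Cd209a fell (median -0.33), with an adjusted p of 0.157 without wild-type replicate 3. Of 20 Toll-like receptors and adaptors only Tlr1 fell (-1.09; median -0.06), with an adjusted p of 0.135 without that array.

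Flt3, the receptor of Flt3L, had 7548, 8187 and 7959 in the Flt3L arrays and 7446, 7846 and 7197 in the wild-type arrays, which overlap, and it differed by 0.07 ± 0.16. Of 19 genes of the Flt3 and cytokine receptor list, 1 rose and 0 fell, with a median of -0.22. The risen gene was Myc, a transcription factor of growth, which had 1563, 1660 and 1431 against 694, 703 and 753 (1.06 ± 0.24, adjusted p = 0.0269). Its groups were well apart and its difference was between 1.01 and 1.12 in every fit that left out 1 array, but the adjusted p was above the threshold in all 6, up to 0.118. The feedback inhibitors Socs2 (-0.85) and Cish (-0.41) and the kinase Pim1 (-0.81) were not called. Csf1r, the receptor of macrophage colony-stimulating factor, differed by -0.96 (adjusted p = 0.0538). Among 11 measured genes of the BCL2 family of cell death regulators, 0 were called, with a median of -0.14.

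Of 24 measured immediate early and heat shock genes, which cells switch on soon after a stimulus or handling, 3 fell and 0 rose. The median of the list was -0.51, and 0.813% of all genes fell. Egr1 had 1789, 1018 and 2339 against 5191, 2922 and 7745, Egr2 differed by -1.52 and Ier3 by -1.86. The list had 0 called genes and a median of -0.12 once wild-type replicate 3 was left out. Its summed signal was 216700 in that array, beside 127800 and 120400 in the other 2 and 98400 to 146700 in the Flt3L arrays. It also had 0 called genes without wild-type replicate 1, Flt3L replicate 1 or Flt3L replicate 2.

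Of 19 genes of cholesterol synthesis and uptake, 2 fell (median -0.31), beside 0.813% of all genes. Hmgcs1, which makes the precursor of mevalonate, had 1667, 1656 and 1868 against 2905, 2698 and 2860 (-0.69 ± 0.13, adjusted p = 0.00514), with 1 of 4 probe sets called. Insig1, which restrains sterol synthesis, fell by 0.83, and its adjusted p was 0.0778 without wild-type replicate 3 and 0.204 without Flt3L replicate 2. Of 20 genes of heme, iron and oxidative stress, Gclc and Hmox1 fell (median -0.14). Glycolysis (17 genes, median 0.01), the respiratory chain (32, -0.05) and the cytosolic ribosome (24, -0.13) had 0 called.

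Among the remaining marker lists of other cells, those of B cells and of stromal and endothelial cells had 1 called gene each and the others 0, beside 1.83% of all genes. The 12 T cell markers summed to 685 to 794 in the Flt3L arrays and 765 to 888 in the wild-type arrays, against a mean of 115100 in CD4 T cells, and 0 were called. The 13 B cell markers summed to 8562 to 9578 against 11050 to 12910, with Ms4a1 the only call and a mean of 212500 in B cells. Of these markers 3 had a positive and 10 a negative difference. For 5 every Flt3L array was below every wild-type array, beside 9.16% of all genes. The lists of NK and cytotoxic genes (10 genes, median -0.11), plasmacytoid DCs (10, -0.13), neutrophils (8, -0.23), red cells (7, -0.17), platelets (4, 0.10) and plasma cells (5, -0.25) had 0 called. The 5 melanoma markers, Dct, Pmel, Tyr, Sox10 and Mitf, also had 0 called and summed to 796 to 1038 in the Flt3L arrays, against 918 to 1155 in the wild-type arrays. Of 6 stromal and endothelial markers 1 fell, Pecam1, an adhesion molecule that DCs also carry (-1.11 ± 0.16, median of the list -0.25).

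33D1 DCs of the same kinds of mice show which of these differences were shared. That comparison uses none of the DEC205 arrays, but whether the DCs of both subsets came from the same mice is not stated. It called 100 genes higher (0.753%) and 19 lower (0.143%). Called higher in both subsets were 32 genes, 23.7% of the DEC205 list and 32% of the 33D1 list, among them Ifi27l2a, Ddit4, Fgfr1, Fkbp5 and Oas1a. Called lower in both were 5 genes, 4.63% of the DEC205 list and 26.3% of the 33D1 list, Esam among them, and 0 were called in opposite directions. Of the genes that rose in DEC205 DCs, 93.3% had a positive difference in 33D1 DCs, where 50.4% of all genes did. Of the genes that fell, 85.2% had a negative one. Across all genes the 2 sets of differences correlated with r = 0.412 and rho = 0.371. The interferon list had 5 higher genes and a median of 0.62 in 33D1 DCs, and the cell cycle list 3 and a median of 0.73. All these values include replicate 3 of the 33D1 Flt3L arrays, where some but not all genes of DEC205 DCs stood higher, as given below. The counts of shared genes were not repeated without that array.

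**Figure D5:**
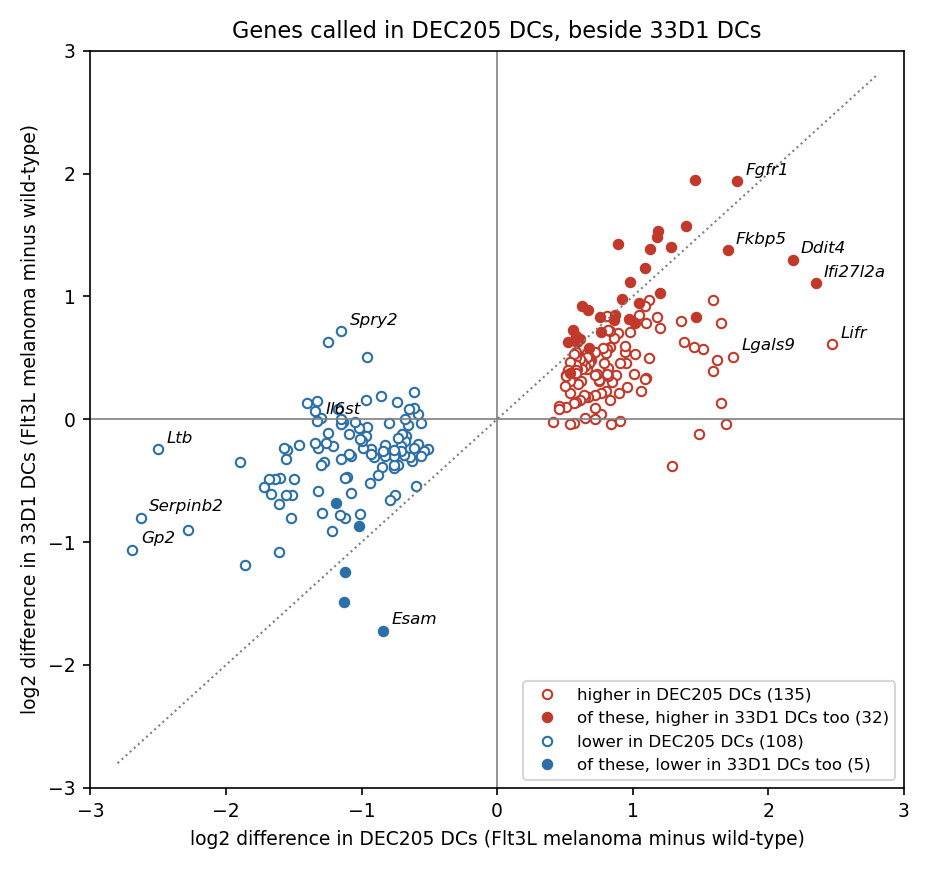
Log2 difference of each of the 243 genes called in DEC205 DCs (x axis) beside its difference in 33D1 DCs (y axis), filled where called the same way in both, with a dotted line of equal differences. Fgfr1 and Fkbp5 lie near the line, while Ltb, Serpinb2 and Il6st lie near 0 or above -1 in 33D1 DCs.

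The difference between the subsets was itself called for 8 genes (0.0602%), with 634 at an unadjusted p under 0.05. Ltb fell in DEC205 DCs and was 13163, 12615 and 13439 against 15826, 15310 and 15244 in 33D1 DCs, so that the effects differed by -2.25 ± 0.30 (adjusted p = 0.0023). Il6st differed by -1.32 ± 0.22 (0.0303), and its difference in 33D1 DCs was -0.01 ± 0.16. Olfm1, a secreted olfactomedin, rose in 33D1 DCs from 35.1, 25.6 and 24.4 to 433, 571 and 630.3 and stood at 4054, 3068 and 2657 against 5373, 5560 and 4893 in DEC205 DCs, and its effects differed by -2.23 ± 0.26 (adjusted p = 0.000594). Lifr, whose difference was 2.47 in one subset and 0.61 in the other, did not pass this test (1.86 ± 0.57, adjusted p = 0.44), nor did Serpinb2. Ltb and Olfm1 kept the call whichever of the 6 DEC205 arrays was left out, while Il6st lost it without wild-type replicate 1 (0.104) or 3 or Flt3L replicate 1 or 2. Without DEC205 wild-type replicate 3 and 33D1 Flt3L replicate 3, 2 genes were called, Ltb (0.0438) and Olfm1 (0.008). That 33D1 array had Irf8 at 2407, beside 341 and 371 in the other 33D1 Flt3L arrays, and Cd8a at 489, beside 132 and 170. Ly75 (125, beside 197 and 124) and Sult1a1 (264, beside 192 and 316) were not raised in it. Whether it held RNA of DEC205 DCs was not tested.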

How the data were processed

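The deposited table held linear signal intensity values for 45101 probe sets. Per the submitters' processing notes they came from GCOS and MAS5, with no version stated there. Probe sets with 1 gene symbol in the platform annotation (34945) were used, and those with several (932) or none (9160) were left out. Of these, 23946 passed a filter (signal over 156.3, the table's median, on 3 or more of 21 arrays). The offset of 48.6 in the log2 scale is the table's 25th percentile. With limma 3.58.1 under R 4.3.3, group means of all 21 arrays were fitted (lmFit, then eBayes with trend, leaving 14 residual degrees of freedom). P-values were two-sided and adjusted by Benjamini-Hochberg over the 23946 probe sets. A gene was read from its kept probe set with the highest mean.

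The fit was tested on simulated data for this comparison. Of 100 features changed by a log2 of 1, 59 were recovered, and of 100 changed by 2, 93. The simulation had 23946 features, and 4 false calls were made among those left unchanged. These counts come from simulated arrays. They do not measure false calls from a shift shared by many genes of 1 array, such as the transcripts of other DCs described above. Same-numbered arrays had deviations correlating at 0.106, 0.0312 and 0.0341, and other pairs at -0.127 to 0.0789. These values do not settle whether the numbers mark pairs. The numbers entered only the alternative fit with a replicate block. The arrays, the 36 gene lists and the naming rule were chosen with earlier results of these data known. The rule named the 15 highest and 15 lowest called genes without overlap between groups, up to 4 called members of a list, the Flt3, gp130 and MHC lists, sort markers, and the 5 highest and 5 lowest differences between subsets. Other genes in the text were chosen after their values were seen. Alternatives left out each array or changed the scaling, offset, filter, arrays, probe sets, variance model or block.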

Additional observations from a re-analysis of the deposited data

Results flagged for a closer look

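The genes below had a difference between Flt3L melanoma and wild-type mice that itself differed between DEC205 and 33D1 DCs, by limma's test of that difference. Ltb (-2.25), lymphotoxin beta, and Il6st (-1.32), the gp130 chain, fell in DEC205 DCs, and their levels in 33D1 DCs were given above. Spry2 (-1.87 ± 0.34, adjusted p = 0.0455) fell in DEC205 DCs and had 294, 291 and 282 against 143, 138 and 193 in 33D1 DCs, where its difference of 0.72 did not pass the test. Its call for the difference between subsets was lost whichever of the 6 DEC205 arrays was left out.

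The other genes moved mainly in 33D1 DCs. Olfm1 (-2.23) rose there by 2.93 and Slc27a2, a fatty acid transport protein (-2.40 ± 0.38, adjusted p = 0.0161), by 2.39, from 82.6, 70.7 and 35.3 to 438, 632 and 527. In DEC205 DCs Slc27a2 was between 10.0 and 21.8 on all 6 arrays. Mtss1, a membrane-bending protein (-1.96 ± 0.35, adjusted p = 0.039), rose by 1.38 in 33D1 DCs. Rtl8c (1.55 ± 0.23, adjusted p = 0.00931) fell by 1.06 in 33D1 DCs and had 6605, 6769 and 7013 against 5020.3, 5301 and 4175 in DEC205 DCs. Without wild-type replicate 3 the calls of Rtl8c (0.0515), Slc27a2 and Mtss1 (0.138) were lost. Frmd4b, the remaining called gene with all arrays, had -1.19, and it too lost its call without that array.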

How the results depend on the processing

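With every array, 135 genes were higher, 108 lower and 8 differed between the subsets. Leaving out 1 DEC205 array gave 42 to 132 higher, 38 to 91 lower and 2 to 13 differing. Leaving out wild-type replicate 3 and 33D1 Flt3L replicate 3 together gave 53 lower and 2 differing. The higher count was 80 with median centring, where 83 were lower, 222 with the 12 DC arrays only, 88 with the 6 DEC205 arrays only and 82 without the variance trend. The lower count was 65 with the 6 DEC205 arrays. The differing count was 2 with an offset of 16, 31 with an offset of 200, 14 with 1 probe set per gene and 5 without the trend. With the replicate block the counts were 120, 99 and 7, and of the 56 called named genes Cenpi, Egr1, Egr2 and Vcam1 lost their call. In 0 of the alternatives did a named gene's call reverse. Fits with fewer arrays have fewer degrees of freedom, and other causes were not tested.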

Other observations

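Outside the naming rule, several genes kept their calls whichever of the 6 DEC205 arrays was left out, and were picked here after their values were seen. Vim, the intermediate filament vimentin, had 14546, 19488 and 18915 in the Flt3L arrays and 7783, 6144 and 9149 in the wild-type arrays (1.20 ± 0.16, adjusted p = 0.000304), and rose in 33D1 DCs too (1.03). Flna, the actin crosslinker filamin A, rose by 0.69 ± 0.13, and Lgals3bp, a galectin-binding glycoprotein, by 1.02 ± 0.15. Ifi207, of the interferon-inducible p200 family, rose by 1.13 ± 0.17 and by 1.39 in 33D1 DCs.

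Further genes picked in the same way fell. Foxo1, a transcription factor restrained by the kinase Akt, had 571, 475.8 and 798 against 1386, 1370.0 and 1432 (-1.15 ± 0.16, adjusted p = 0.000425), and its difference in 33D1 DCs was 0.00. Malt1, a protease that activates NF-kB, fell by 0.85 ± 0.11, and Nfkbie, an inhibitor of NF-kB, by 0.88 ± 0.13. Fgr, a kinase of the Src family, fell by 1.34 ± 0.16, and Ffar2, a receptor for short-chain fatty acids, by 1.46 ± 0.25. Malt1, Nfkbie, Fgr and Ffar2 had higher means in wild-type 33D1 DCs, at 4689, 4921, 4415 and 14930, than in the DEC205 arrays.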
